A study of Mus musculus with 12 samples.

Results

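The DNA replication machinery was described through 45 genes of the 55536 gene IDs counted in MEF, mouse embryonic fibroblasts, which are cells of embryonic connective tissue kept in culture. The genes were chosen by symbol, for what their proteins do at the replication fork, with earlier results of these data known. They fall into 10 groups by role: 6 origin recognition genes, 3 licensing genes, 6 subunits of the Mcm2-7 helicase, 6 genes of helicase activation, 6 of the sliding clamp and its loader, 4 of polymerase alpha and primase, 5 of polymerases delta and epsilon, 3 single-strand binding genes, 2 genes of flap removal and ligation, and 4 of nucleotide supply. The treated cells received halofuginone (HF), a compound that blocks the charging of proline tRNA, at 100 nM for 6 h in high-glucose medium with dialyzed serum. The control cells spent the same 6 h in that medium without HF. Total RNA and ribosome-protected fragments (footprints, RPF) were sequenced from both, as 3 libraries in each of 4 groups, in a study whose title concerns the kinase GCN2 and the complex mTORC1 in nutrient stress. The genotype, sex and passage of the cells were not given in the sources used here. Every p-value sets a difference between groups against the spread among libraries within a group. The labels do not say whether replicates were separate cultures, so that spread may be technical.

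Cells prepare to copy their DNA by loading the Mcm2-7 ring onto origins with the origin recognition complex, Cdc6 and Cdt1, while geminin (Gmnn) holds Cdt1 back once replication has begun. In S phase Cdc45 and the GINS complex turn the ring into an active helicase, polymerase alpha with primase lays down primers, and polymerases delta and epsilon extend them, held on the template by the clamp PCNA. Many of these genes are known targets of E2F transcription factors, and their mRNAs are known to vary with the cell cycle, being high around the entry into S phase.

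Promoter sequences were examined for words that E2F factors are known to bind. RefSeq windows of GRCm38.p6, 300 bases long from 250 before to 50 after a transcription start, were at hand for 37 of the 45 genes. The words searched were TTTGGCGC, TTTGCCGC, TTTCGCGC and TTTCCCGC, on both strands, and they can overlap each other. At least 1 of them occurred in the windows of 15 of the 37 genes (40.5%), namely Orc1, Orc3, Cdc6, Cdt1, Mcm3, Mcm5, Mcm6, Mcm7, Gins3, Rfc3, Pola1, Pold1, Pold3, Pole2 and Lig1. The share was 2.60% over 27025 genes with a window and 5.48% over the 6345 of them that were tested in both RNA and footprints. Stretches of 170 bases before the start are given for 4 of these genes, one each from the helicase, licensing, clamp loader and polymerase alpha groups, to show where the words lie. They are shown 5′ to 3′ in lower case with the E2F words in capitals, and end at the base before the start. Their positions are Mcm6 chr1:128359706-128359875 on the minus strand, Cdc6 chr11:98907981-98908150 on the plus strand, Rfc3 chr5:151651209-151651378 on the minus strand and Pola1 chrX:93632156-93632325 on the minus strand.
Mcm6: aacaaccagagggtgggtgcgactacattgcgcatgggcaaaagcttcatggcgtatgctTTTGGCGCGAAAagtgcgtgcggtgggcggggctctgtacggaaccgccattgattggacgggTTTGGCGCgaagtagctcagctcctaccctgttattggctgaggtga
Cdc6: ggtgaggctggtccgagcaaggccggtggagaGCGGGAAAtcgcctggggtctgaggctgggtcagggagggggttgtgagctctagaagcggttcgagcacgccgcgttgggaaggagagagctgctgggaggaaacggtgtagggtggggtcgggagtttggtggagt
Rfc3: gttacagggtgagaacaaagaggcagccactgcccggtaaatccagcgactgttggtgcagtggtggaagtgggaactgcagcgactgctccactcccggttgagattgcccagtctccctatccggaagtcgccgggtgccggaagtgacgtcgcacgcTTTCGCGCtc
Pola1: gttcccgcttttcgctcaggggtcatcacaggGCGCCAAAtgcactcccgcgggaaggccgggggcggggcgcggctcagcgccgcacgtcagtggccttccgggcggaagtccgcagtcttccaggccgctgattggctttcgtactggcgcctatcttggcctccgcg
Mcm6 holds 3 words, of which TTTGGCGC and the reverse complement of TTTCGCGC share bases in TTTGGCGCGAAA. Cdc6, Rfc3 and Pola1 hold 1 word each in these stretches. For Cdc6 and Pola1 the transcription start used lies inside the annotated gene. On their strands these genes begin at chr11:98907709 and chrX:93632387, so both printed stretches lie within the gene. The CCAAT box (CCAAT, both strands) occurred in 23 of the 37 genes (62.2%), against 42.9% of the genes tested in both assays and 41.1% of all genes with a window. The cell cycle homology word TTTGAA, on both strands, occurred in 5 of the 37 (13.5%). This was close to its 13.7% among the tested genes and below its 20.2% among all genes with a window. A match is a description of the letters and not evidence of binding.

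**Figure D1:**
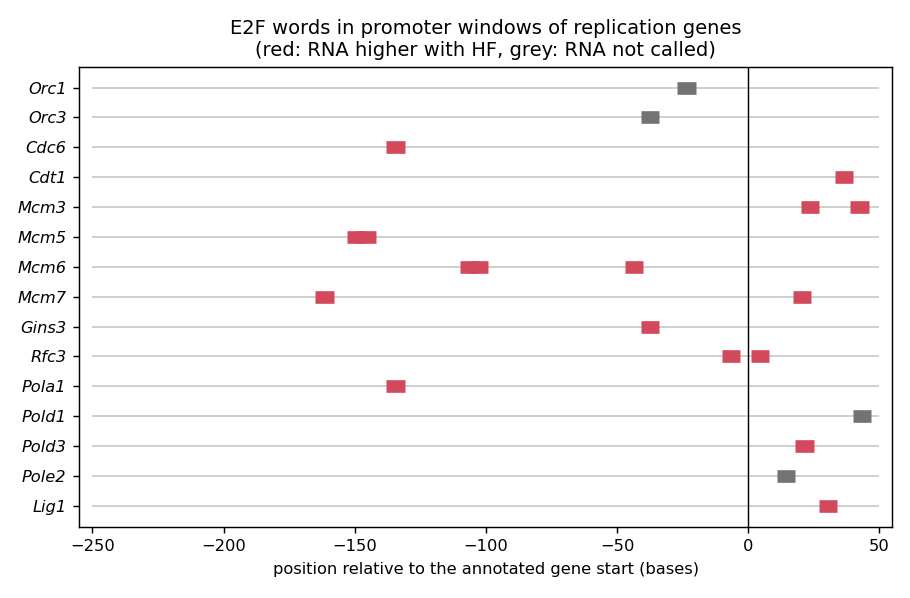
Positions of the E2F words in the promoter windows of the genes that hold one, with distance from the transcription start in bases on the horizontal axis and a gene on each line. Marks stand for words on either strand, red for genes whose RNA rose in HF cells and grey for genes not called, and the windows reach from 250 bases before the start to 50 after it.

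Total RNA libraries held 1017651 to 1697554 counts in HF cells and 718096 to 1295434 in control cells. Footprint libraries held 562794 to 1958356 counts in HF cells and 724609 to 2527791 in control cells. The lowest single count of a replication gene was 5, in an HF RNA library, and the median gene had 138 counts in HF RNA, 72 in control RNA, 112 in HF footprints and 198 in control footprints. Of 11 fibroblast markers, 9 were detected in RNA, while Dcn and Lum were at 0 in all 6 RNA libraries. Their summed RNA level was 9365 to 9684 CPM (counts scaled to a common library total) in HF cells and 7790 to 8155 CPM in control cells, and their summed footprints were 12382 to 12715 CPM in HF cells and 15959 to 16925 CPM in control cells. Of the 7 fibroblast markers tested in RNA, 1 rose and 4 fell, and of the 8 tested in footprints, 2 rose and 5 fell. The part of these levels in the results was not tested. Markers of leukocytes, epithelium, erythroid cells and muscle each summed to at most 5.89 CPM in any library. Endothelial markers summed to 5.28 to 15.7 CPM in HF RNA and 0 to 1.61 CPM in control RNA, with Pecam1, Tek and Emcn at 0, and their part in the results was not tested. Neural markers, led by Nes, summed to 318 to 347 CPM in HF RNA and 321 to 361 CPM in control RNA. In the annotation 13 of the 45 genes overlap another protein-coding gene, and reads from the stretch they share may have been counted for either gene or for neither.

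Replication genes took a larger share of the RNA in HF cells. All counts of the 45 genes together made up 0.695% ± 0.00897 of HF RNA libraries and 0.447% ± 0.00115 of control RNA libraries, and 1.16% ± 0.0279 of HF footprint libraries and 0.897% ± 0.00741 of control footprint libraries (SD, n = 3 each). The ribosomal RNA locus Gm42418 took 8.31% ± 1.08 of HF RNA and 12.7% ± 0.952 of control RNA (SD, n = 3 each), and its part in these shares was not tested. All 45 genes passed the low-count filter in every comparison. In RNA 28 genes rose and 2 fell by edgeR's quasi-likelihood test at an adjusted p under 0.05, while 22.2% of the 9145 genes tested rose and 21.4% fell. The median log2 fold change (HF over control) was 0.51 for the 45 genes and -0.02 for all genes tested. In 27 genes every HF RNA library lay above every control library, and in 2 every HF library lay below, beside 25.9% above and 25.5% below over all genes. In footprints 26 genes rose and 6 fell, while 22.4% of the 8373 protein-coding genes tested rose and 20.9% fell. The median log2 fold change in footprints was 0.39 for the 45 genes and -0.02 for all genes tested. The HF footprint libraries lay above the control libraries in 25 genes and below them in 7, beside 25.2% and 26.2% over all genes. The counts by role that follow are to be read beside these shares of all genes, as each role holds few genes. In bulk samples, a change in the share of cells in S phase and a change in the RNA of each cell cannot be told apart.

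**Figure D2:**
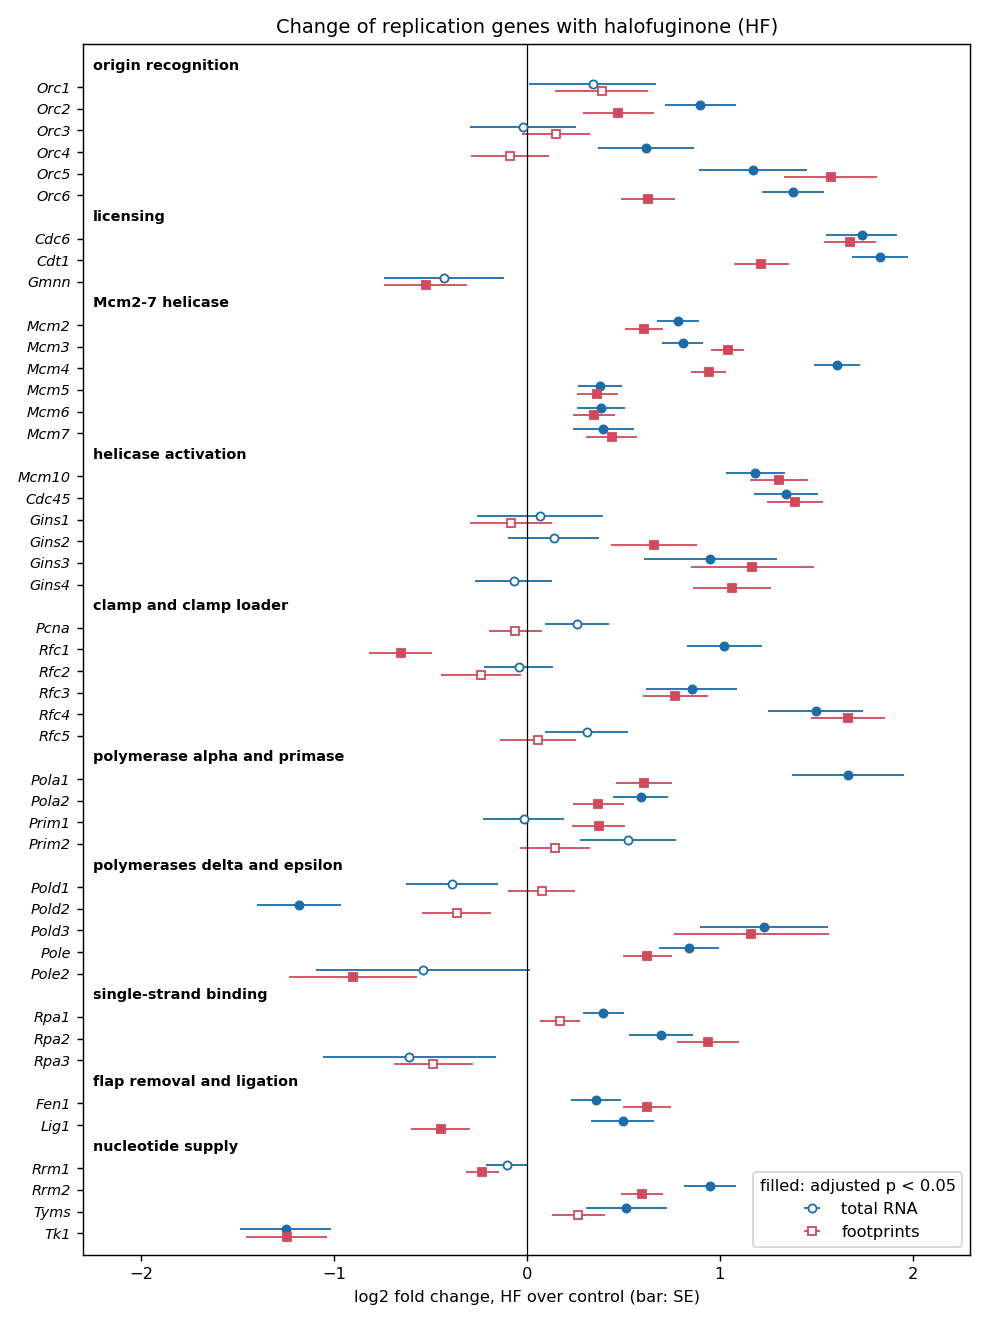
Log2 fold changes (HF over control) of the 45 replication genes in total RNA and in footprints, with bars for 1 standard error, grouped by role. Most points lie to the right of 0, up to 1.83 for Cdt1 RNA, and Tk1 lies at -1.25 in both assays.

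Origin recognition genes rose or were not called, and none fell. RNA of 4 of the 6 rose (Orc2, Orc4, Orc5 and Orc6), and footprints of 3 rose (Orc2, Orc5 and Orc6). Orc6 RNA was at 199, 210.2 and 175 CPM in HF cells, against 72.5, 73.3 and 77.7 CPM in control cells. Orc6 footprints were at 268, 211 and 265 CPM in HF cells, against 165, 159 and 162 CPM in control cells. Orc6, the subunit that helps load Mcm2-7, was higher in every HF library of both assays, and its RNA rose 2.60-fold (log2 1.38, SE 0.16, edgeR adjusted p = 7.97e-11). Orc6 footprints rose by less, 1.54-fold (log2 0.63, SE 0.14, edgeR adjusted p = 0.000496). Orc5 RNA was at 60.7, 65.8 and 61.8 CPM in HF cells, against 28.2, 12.7 and 39.9 CPM in control cells. Orc5 footprints were at 81.6, 83.6 and 75.8 CPM in HF cells, against 31.2, 23.9 and 23.9 CPM in control cells. For Orc5, an ATP-binding core subunit, no HF library overlapped a control library. Orc5 rose 2.25-fold (log2 1.17, SE 0.28, edgeR adjusted p = 0.000422) in RNA and 2.98-fold (log2 1.57, SE 0.24, edgeR adjusted p = 3.21e-06) in footprints. Orc2 RNA rose 1.87-fold (log2 0.90, SE 0.18, edgeR adjusted p = 4.06e-05), and its footprints rose by log2 0.47. The Orc2 footprint call was lost with upper-quartile factors, with DESeq2, and without RPF control 1, RPF control 2, RPF control 3 or RPF HF 2 (log2 0.28 to 0.48, adjusted p = 0.067 to 0.257). Orc4 RNA rose 1.54-fold (log2 0.62, SE 0.25, edgeR adjusted p = 0.0369). The Orc4 RNA call was lost with upper-quartile factors, with DESeq2, and without RNA control 1, RNA control 3 or RNA HF 2 (log2 0.48 to 0.63, adjusted p = 0.0582 to 0.157). Orc1 and Orc3, with log2 fold changes of 0.34 and -0.02 in RNA and 0.39 and 0.15 in footprints, were not called. Orc1, Orc3 and Orc4 overlap other protein-coding genes in the annotation, and the use of strand in counting is not given in the sources used here.

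The licensing factors Cdc6 and Cdt1 had the highest RNA fold changes of all 45 genes. Cdt1 RNA was at 335, 281 and 292 CPM in HF cells, against 85.3, 101 and 70.4 CPM in control cells. Cdt1 footprints were at 338, 335 and 392 CPM in HF cells, against 148, 183 and 117 CPM in control cells. Cdt1, at chr8:122568015-122573130 of GRCm38, brings the Mcm2-7 ring to the origin, and its HF libraries all exceeded its control libraries. Cdt1 RNA rose 3.56-fold (log2 1.83, SE 0.15, edgeR adjusted p = 2.43e-17), and its footprints rose 2.32-fold (log2 1.22, SE 0.14, edgeR adjusted p = 2.49e-08). Cdc6 RNA was at 182, 162 and 175 CPM in HF cells, against 66.02, 46.5 and 39.9 CPM in control cells. Cdc6 footprints were at 438, 396 and 334 CPM in HF cells, against 116, 129 and 126 CPM in control cells. Both assays of Cdc6, the ATPase that joins the origin complex before the ring is loaded, separated the groups fully. The rise was 3.33-fold (log2 1.74, SE 0.18, edgeR adjusted p = 2.38e-12) in RNA and 3.20-fold (log2 1.68, SE 0.14, edgeR adjusted p = 6.68e-12) in footprints. Gmnn RNA was at 36.9, 23.6 and 26.5 CPM in HF cells, against 49.1, 25.4 and 39.9 CPM in control cells. Gmnn footprints were at 68.1, 63.6 and 49.3 CPM in HF cells, against 96.1, 68.6 and 107 CPM in control cells. Geminin RNA overlapped between the groups and was not called (log2 -0.43, SE 0.31, edgeR adjusted p = 0.266). Geminin footprints were lower in every HF library and fell 1.44-fold (log2 -0.52, SE 0.21, edgeR adjusted p = 0.0468). The Gmnn footprint call was lost with DESeq2, in a fit on all 12 libraries, and without RPF control 1, RPF control 3, RPF HF 1, RPF HF 2 or RPF HF 3 (log2 -0.65 to -0.42, adjusted p = 0.0505 to 0.139).

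All 6 subunits of the Mcm2-7 helicase rose in RNA and in footprints, by unequal amounts. Mcm4 RNA was at 492, 472 and 449 CPM in HF cells, against 174, 147 and 139 CPM in control cells. Mcm4 footprints were at 1208, 1158 and 1168 CPM in HF cells, against 656, 588 and 592 CPM in control cells. Mcm4, at chr16:15623897-15637400, had no overlap between groups and rose 3.05-fold (log2 1.61, SE 0.12, edgeR adjusted p = 1.29e-18) in RNA and 1.92-fold (log2 0.94, SE 0.09, edgeR adjusted p = 2.72e-10) in footprints. Mcm3 RNA was at 507, 519 and 473 CPM in HF cells, against 281, 296 and 278 CPM in control cells. Mcm3 footprints were at 1240.2, 1179 and 1217 CPM in HF cells, against 583, 596 and 592 CPM in control cells. Every HF library of Mcm3 was above the control libraries, with a rise of 1.75-fold (log2 0.81, SE 0.11, edgeR adjusted p = 2.57e-09) in RNA and 2.06-fold (log2 1.04, SE 0.09, edgeR adjusted p = 1.72e-11) in footprints. Mcm2 rose by log2 0.78 in RNA and 0.61 in footprints. Mcm5, Mcm6 and Mcm7 had smaller values, at log2 0.38, 0.38 and 0.40 in RNA and 0.37, 0.35 and 0.44 in footprints. Mcm7 libraries overlapped between the groups in both assays. Some calls of Mcm5, Mcm6 and Mcm7 were lost under alternatives. The Mcm5 footprint call was lost without RPF control 2 (log2 0.31, edgeR adjusted p = 0.0516). The Mcm6 RNA call was lost without RNA HF 2 (log2 0.31, edgeR adjusted p = 0.0769), and the Mcm6 footprint call was lost without RPF control 2 or RPF control 3 (log2 0.29 to 0.32, adjusted p = 0.052 to 0.0861). The Mcm7 RNA call was lost with upper-quartile factors, with DESeq2, in a fit on all 12 libraries, and without RNA control 2, RNA control 3, RNA HF 1, RNA HF 2 or RNA HF 3 (log2 0.22 to 0.45, adjusted p = 0.0568 to 0.285). Without RNA control 1, Mcm7 RNA was at log2 0.65. The Mcm7 footprint call was lost without RPF control 2, RPF control 3 or RPF HF 1 (log2 0.27 to 0.38, adjusted p = 0.0512 to 0.131). Mcm7, the host of Mir25, Mir93 and Mir106b, also overlaps Ap4m1 in the annotation.

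**Figure D3:**
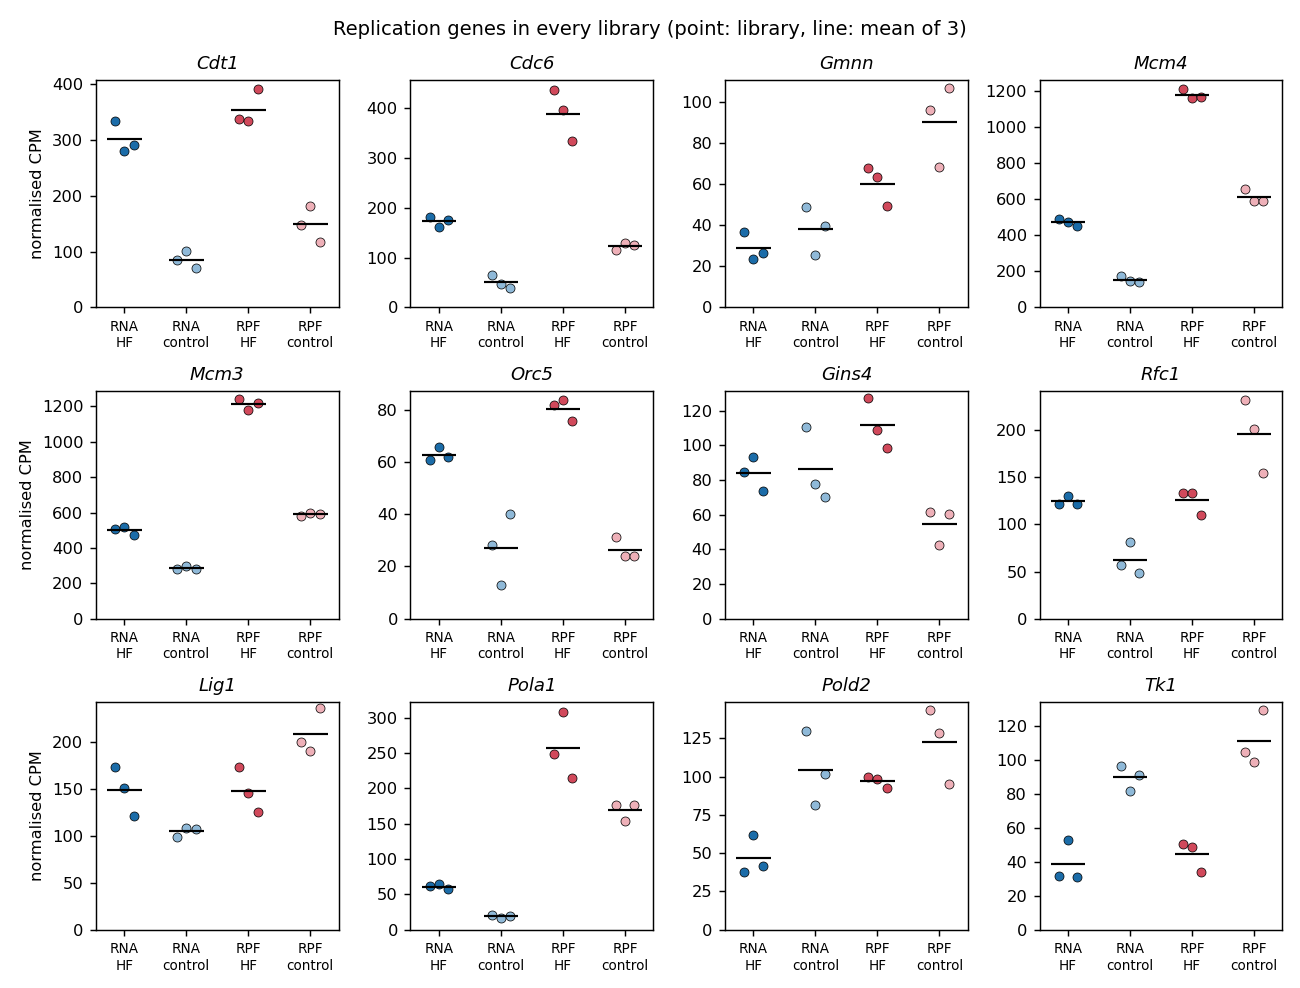
Normalised CPM of 12 replication genes on the vertical axis, from 0, for HF and control libraries of total RNA and of footprints (RPF). Points are single libraries and lines are means of 3, and for Cdt1, Cdc6 and Mcm4 the HF points lie above the control points in both assays.

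Of the 6 helicase activation genes, 3 rose in RNA and 5 rose in footprints, and none fell. Cdc45 RNA was at 207, 160.1 and 192 CPM in HF cells, against 73.3, 78.9 and 69.3 CPM in control cells. Cdc45 footprints were at 325, 259 and 364 CPM in HF cells, against 114, 121 and 131 CPM in control cells. Cdc45, which rides with the active helicase, was higher in all HF libraries and rose 2.54-fold (log2 1.34, SE 0.17, edgeR adjusted p = 3.25e-10) in RNA and 2.62-fold (log2 1.39, SE 0.15, edgeR adjusted p = 2.09e-09) in footprints. Mcm10 RNA was at 237, 181 and 209 CPM in HF cells, against 99.03, 85.98 and 89.3 CPM in control cells. Mcm10 footprints were at 240.3, 238 and 305 CPM in HF cells, against 108, 109 and 91.3 CPM in control cells. Mcm10, a factor that helps start the helicase and is not part of the ring, also showed no overlap, and it rose 2.27-fold (log2 1.18, SE 0.15, edgeR adjusted p = 1.86e-09) in RNA and 2.47-fold (log2 1.31, SE 0.15, edgeR adjusted p = 2e-08) in footprints. Gins4 RNA was at 84.4, 93.3 and 73.6 CPM in HF cells, against 110.3, 77.5 and 70.4 CPM in control cells. Gins4 footprints were at 127, 109 and 98.6 CPM in HF cells, against 61.2, 42.3 and 60.4 CPM in control cells. RNA of the GINS subunit Gins4, at chr8:23226610-23237668, overlapped between the groups (log2 -0.07, SE 0.20, edgeR adjusted p = 0.808). Its footprints were higher in every HF library and rose 2.09-fold (log2 1.07, SE 0.20, edgeR adjusted p = 7.32e-05). Gins3 rose by log2 0.95 in RNA, where the groups overlapped, and 1.17 in footprints. The Gins3 RNA call was lost with DESeq2 and without RNA control 2, RNA control 3 or RNA HF 3 (log2 0.70 to 0.98, adjusted p = 0.054 to 0.164). Without RNA control 1, Gins3 RNA was at log2 1.49, and the Gins3 footprint call was lost without RPF HF 1 (log2 0.92, edgeR adjusted p = 0.0734). Gins2 was not called in RNA (log2 0.14) and rose by log2 0.66 in footprints. The Gins2 footprint call was lost with DESeq2 and without RPF control 1, RPF control 2 or RPF HF 1 (log2 0.43 to 0.63, adjusted p = 0.0533 to 0.222). Gins1 was not called in RNA (log2 0.07) or in footprints (log2 -0.08). Cdc45 overlaps Ufd1 and Gins2 overlaps Gse1 in the annotation.

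Of the 6 genes of the clamp and its loader, 3 rose in RNA, and 2 rose and 1 fell in footprints. Beside these counts stand 22.2% of all genes rising in RNA, and 22.4% rising and 20.9% falling in footprints. Pcna, the ring that tethers polymerases to DNA, was not called in RNA (log2 0.26) or in footprints (log2 -0.06). Its HF RNA libraries all lay above the control libraries, and its pseudogenes Pcna-ps1 and Pcna-ps2 could share its reads. Rfc4 RNA was at 87.95, 89.4 and 73.00 CPM in HF cells, against 29.8, 32.4 and 26.3 CPM in control cells. Rfc4 footprints were at 209, 278 and 148 CPM in HF cells, against 77.4, 55.8 and 64.6 CPM in control cells. Rfc4, a small subunit of the loader, had all HF libraries above the control libraries. It rose 2.82-fold (log2 1.5, SE 0.25, edgeR adjusted p = 8.07e-07) in RNA and 3.17-fold (log2 1.67, SE 0.19, edgeR adjusted p = 1.49e-08) in footprints, and it overlaps Eif4a2 in the annotation. Rfc1 RNA was at 121, 131 and 122 CPM in HF cells, against 57.2, 81.8 and 48.3 CPM in control cells. Rfc1 footprints were at 133, 134 and 110.0 CPM in HF cells, against 233, 202 and 155 CPM in control cells. The 2 assays of Rfc1, the large subunit of the loader, at chr5:65261852-65338617, moved in opposite directions with no overlap in either. Rfc1 RNA rose 2.03-fold (log2 1.02, SE 0.19, edgeR adjusted p = 1.3e-05), and its footprints fell 1.57-fold (log2 -0.65, SE 0.16, edgeR adjusted p = 0.00145). Rfc3 RNA was at 80.04, 99.2 and 61.8 CPM in HF cells, against 47.5, 43.7 and 39.9 CPM in control cells. Rfc3 footprints were at 145, 149 and 144 CPM in HF cells, against 83.5, 91.9 and 80.1 CPM in control cells. Rfc3 was higher in all HF libraries and rose 1.81-fold (log2 0.85, SE 0.23, edgeR adjusted p = 0.00209) in RNA and 1.70-fold (log2 0.77, SE 0.17, edgeR adjusted p = 0.000398) in footprints. Rfc2 (log2 -0.04 in RNA, -0.24 in footprints) and Rfc5 (log2 0.31 in RNA, 0.06 in footprints) were not called.

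Among polymerase alpha and primase genes, 2 of 4 rose in RNA and 3 of 4 in footprints. Pola1 RNA was at 61.6, 64.8 and 57.1 CPM in HF cells, against 20.9, 16.9 and 18.9 CPM in control cells. Pola1 footprints were at 248, 308 and 214 CPM in HF cells, against 176, 154 and 177 CPM in control cells. Pola1, the catalytic subunit of polymerase alpha, at chrX:93304766-93632387, had no overlap between the groups. Its RNA rose 3.17-fold (log2 1.67, SE 0.29, edgeR adjusted p = 2.61e-06) and its footprints rose 1.52-fold (log2 0.61, SE 0.14, edgeR adjusted p = 0.000984). Pola2 RNA was at 243, 205 and 214 CPM in HF cells, against 127, 185 and 134 CPM in control cells. Pola2 footprints were at 300.5, 251 and 286 CPM in HF cells, against 241, 192 and 218 CPM in control cells. Each HF library of Pola2, the second subunit, was above the control libraries. The rise of Pola2 was 1.51-fold (log2 0.59, SE 0.14, edgeR adjusted p = 0.000462) in RNA and 1.29-fold (log2 0.37, SE 0.13, edgeR adjusted p = 0.0236) in footprints, and the Pola2 footprint call was lost with upper-quartile factors and without RPF control 2, RPF control 3 or RPF HF 1 (log2 0.27 to 0.34, adjusted p = 0.0771 to 0.171). Prim1 RNA was at 66.8, 70.7 and 83.00 CPM in HF cells, against 65.2, 71.9 and 88.2 CPM in control cells. Prim1 footprints were at 302, 229 and 259.7 CPM in HF cells, against 220.2, 188 and 212 CPM in control cells. RNA of Prim1, the catalytic primase subunit, overlapped between the groups (log2 -0.02, SE 0.21, edgeR adjusted p = 0.953), while its footprints were higher in every HF library and rose 1.29-fold (log2 0.37, SE 0.14, edgeR adjusted p = 0.0268). The Prim1 footprint call was lost with upper-quartile factors, with DESeq2, and without RPF control 1, RPF control 2, RPF control 3 or RPF HF 1 (log2 0.24 to 0.40, adjusted p = 0.054 to 0.202). Prim2 was not called in RNA (log2 0.52) or in footprints (log2 0.15).

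Of the 5 genes of polymerases delta and epsilon, 2 rose and 1 fell in RNA, and 2 rose and 1 fell in footprints. The shares of all genes that rose and fell were 22.2% and 21.4% in RNA, and 22.4% and 20.9% in footprints. With 5 genes these counts cannot be told from those shares. Pold2 RNA was at 37.8, 61.9 and 41.8 CPM in HF cells, against 129.6, 81.8 and 102 CPM in control cells. Pold2 footprints were at 99.6, 98.7 and 92.9 CPM in HF cells, against 144, 129 and 95.6 CPM in control cells. Pold2, an accessory subunit of polymerase delta, at chr11:5872180-5878256, was lower in every HF RNA library, while its footprints overlapped. Its RNA fell 2.27-fold (log2 -1.18, SE 0.22, edgeR adjusted p = 7.82e-06), and its footprints were not called (log2 -0.36, SE 0.18, edgeR adjusted p = 0.101). Pold2 overlaps Aebp1 and Pole2 overlaps Klhdc1 in the annotation. Pold3 RNA was at 36.9, 43.2 and 53.6 CPM in HF cells, against 23.3, 8.46 and 23.1 CPM in control cells. Pold3 footprints were at 45.02, 11.7 and 43.6 CPM in HF cells, against 18.7, 9.19 and 19.7 CPM in control cells. Pold3, the subunit of polymerase delta that binds PCNA, was higher in every HF RNA library, and its low footprint levels overlapped. Pold3 rose 2.34-fold (log2 1.23, SE 0.33, edgeR adjusted p = 0.00168) in RNA and 2.24-fold (log2 1.16, SE 0.40, edgeR adjusted p = 0.0187) in footprints, and the Pold3 footprint call was lost with DESeq2 and without RPF control 2, RPF HF 1 or RPF HF 3 (log2 0.80 to 1.12, adjusted p = 0.0521 to 0.233). Pole2 RNA was at 10.6, 4.91 and 11.8 CPM in HF cells, against 24.2, 8.46 and 6.30 CPM in control cells. Pole2 footprints were at 24.8, 23.4 and 13.3 CPM in HF cells, against 33.7, 33.1 and 60.4 CPM in control cells. Pole2, a subunit of polymerase epsilon with the fewest RNA counts of the 45 genes, overlapped in RNA (log2 -0.54, SE 0.55, edgeR adjusted p = 0.452). Pole2 footprints were lower in each HF library and fell 1.87-fold (log2 -0.90, SE 0.33, edgeR adjusted p = 0.0277), and the Pole2 footprint call was lost in a fit on all 12 libraries and without RPF control 3 or RPF HF 3 (log2 -0.93 to -0.66, adjusted p = 0.0569 to 0.142). Pole, the catalytic subunit of polymerase epsilon, rose by log2 0.84 in RNA and 0.63 in footprints. Pold1, the catalytic subunit of polymerase delta, was not called in RNA (log2 -0.39) or in footprints (log2 0.08).

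Of the 5 genes of single-strand binding, flap removal and ligation, 4 rose in RNA, and 2 rose and 1 fell in footprints. Among all genes tested 22.2% rose in RNA, and 22.4% rose and 20.9% fell in footprints. Rpa2 RNA was at 151, 142 and 188 CPM in HF cells, against 119, 76.1 and 98.7 CPM in control cells. Rpa2 footprints were at 203, 187 and 159 CPM in HF cells, against 105, 88.9 and 95.6 CPM in control cells. Rpa2, the middle subunit of the protein that coats single-stranded DNA, was higher in all HF libraries and rose 1.62-fold (log2 0.70, SE 0.17, edgeR adjusted p = 0.000396) in RNA and 1.92-fold (log2 0.94, SE 0.16, edgeR adjusted p = 1.65e-05) in footprints. Rpa1 RNA stood at 463, 424 and 424 CPM in HF cells, against 311, 339.7 and 349 CPM in control cells. RNA of Rpa1, the large subunit, was higher in every HF library and rose 1.31-fold (log2 0.39, SE 0.11, edgeR adjusted p = 0.00173), while its footprints overlapped and were not called (log2 0.17, SE 0.10, edgeR adjusted p = 0.179). Rpa3 was not called in RNA (log2 -0.61) or in footprints (log2 -0.49), although its HF footprint libraries all lay below the control libraries. Fen1 RNA was at 226, 236 and 243 CPM in HF cells, against 173, 213 and 168 CPM in control cells. Fen1 footprints were at 335, 346 and 385 CPM in HF cells, against 208, 235 and 253 CPM in control cells. Fen1, the nuclease that cuts the flap between Okazaki fragments, rose 1.28-fold (log2 0.36, SE 0.13, edgeR adjusted p = 0.0206) in RNA and 1.54-fold (log2 0.62, SE 0.13, edgeR adjusted p = 0.000144) in footprints, with no overlap. The Fen1 RNA call was lost with upper-quartile factors and without RNA control 1, RNA control 3 or RNA HF 3 (log2 0.30 to 0.35, adjusted p = 0.0518 to 0.0984). Lig1 RNA was at 173, 151 and 121 CPM in HF cells, against 99.03, 109 and 107 CPM in control cells. Lig1 footprints were at 173, 146 and 125 CPM in HF cells, against 201, 191 and 236 CPM in control cells. Lig1, the ligase that seals Okazaki fragments, at chr7:13277175-13311426, was higher in every HF RNA library and lower in every HF footprint library. Its RNA rose 1.41-fold (log2 0.50, SE 0.16, edgeR adjusted p = 0.0109), and its footprints fell 1.36-fold (log2 -0.45, SE 0.15, edgeR adjusted p = 0.0178). The Lig1 RNA call was lost without RNA control 1 or RNA HF 1 (log2 0.40 to 0.45, adjusted p = 0.0592 to 0.0777), and the Lig1 footprint call was lost without RPF control 3 or RPF HF 3 (log2 -0.40 to -0.35, adjusted p = 0.0619 to 0.0706). Rpa1, Fen1 and Lig1 each overlap another protein-coding gene.

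Of the 4 nucleotide supply genes, 2 rose and 1 fell in RNA, and 1 rose and 2 fell in footprints. All genes tested had 22.2% rising and 21.4% falling in RNA, and 22.4% and 20.9% in footprints. With 4 genes these counts cannot be told from those shares. Tk1 RNA was at 31.7, 53.05 and 31.2 CPM in HF cells, against 96.6, 81.8 and 91.4 CPM in control cells. Tk1 footprints were at 50.6, 48.5 and 34.1 CPM in HF cells, against 105, 98.7 and 129 CPM in control cells. Tk1, the thymidine kinase of the salvage pathway, was lower in every HF library of both assays. It fell 2.38-fold (log2 -1.25, SE 0.23, edgeR adjusted p = 1.01e-05) in RNA and 2.37-fold (log2 -1.25, SE 0.21, edgeR adjusted p = 1.45e-05) in footprints, and it overlaps Afmid in the annotation. Rrm2 RNA was at 279.7, 280.0 and 277 CPM in HF cells, against 119, 180.4 and 141 CPM in control cells. Rrm2 footprints were at 580.1, 488 and 508 CPM in HF cells, against 337, 381 and 329 CPM in control cells. Rrm2, the small subunit of ribonucleotide reductase, was higher in all HF libraries and rose 1.93-fold (log2 0.95, SE 0.14, edgeR adjusted p = 2.31e-08) in RNA and 1.51-fold (log2 0.60, SE 0.11, edgeR adjusted p = 5.41e-05) in footprints. Rrm1 RNA was at 387, 374 and 351 CPM in HF cells, against 394, 429.9 and 374 CPM in control cells. Rrm1 footprints were at 1058, 974 and 914 CPM in HF cells, against 1120.0, 1180.3 and 1173 CPM in control cells. RNA of Rrm1, the large subunit of the same enzyme, overlapped between the groups (log2 -0.10, SE 0.11, edgeR adjusted p = 0.446). Rrm1 footprints were slightly lower in every HF library and fell 1.17-fold (log2 -0.23, SE 0.09, edgeR adjusted p = 0.0294), and the Rrm1 footprint call was lost without RPF control 2, RPF control 3, RPF HF 2 or RPF HF 3 (log2 -0.25 to -0.18, adjusted p = 0.0526 to 0.0964). Tyms, which makes thymidylate, rose by log2 0.51 in RNA and was not called in footprints (log2 0.27). The Tyms RNA call was lost with upper-quartile factors, with DESeq2, and without RNA control 1, RNA control 2, RNA HF 1 or RNA HF 2 (log2 0.34 to 0.53, adjusted p = 0.0582 to 0.246). The pseudogene Tyms-ps could share its reads.

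RNA and footprints were then set beside each other. Of the 45 genes, 23 rose in both assays, 1 fell in both (Tk1), 9 were called in neither, and 2 rose in RNA and fell in footprints (Rfc1 and Lig1). The other 10 were called in a single assay. Joint calls were not counted over all genes tested, so these counts have no background share. In single assays, 22.2% of all genes tested rose and 21.4% fell in RNA, and 22.4% rose and 20.9% fell in footprints. The test of the difference itself, the interaction of assay and treatment over all 12 libraries, called 2 of the 45 genes higher and 6 lower in footprints relative to RNA, while 6.13% of the 7926 genes tested were called higher and 8.23% lower. The median interaction was log2 -0.07 for the 45 genes and 0.00 for all genes tested. In HF cells, footprints relative to RNA were lower for Rfc1 (log2 -1.67, SE 0.26, edgeR adjusted p = 3.03e-06), where RNA rose and footprints fell. Lig1 had the same pair of directions (log2 -0.94, SE 0.23, edgeR adjusted p = 0.00275). Pola1 (log2 -1.05, SE 0.29, edgeR adjusted p = 0.00974), Mcm4 (log2 -0.66, SE 0.14, edgeR adjusted p = 0.000683) and Orc6 (log2 -0.75, SE 0.21, edgeR adjusted p = 0.0116) rose in both assays, with the smaller rise in footprints. The same held for Cdt1 (log2 -0.61, SE 0.21, edgeR adjusted p = 0.0422), but the Cdt1 footprint-over-RNA call was lost with DESeq2, with a replicate block, with a replicate block by culture, and without RNA control 1, RNA control 3, RNA HF 1, RNA HF 3, RPF control 1, RPF control 2, RPF HF 1 or RPF HF 2 (log2 -0.64 to -0.44, adjusted p = 0.0502 to 0.205). The block by culture took same-numbered RNA and footprint libraries of a treatment as sharing a culture, which the labels do not state. Gins4 was higher in footprints relative to RNA (log2 1.14, SE 0.29, edgeR adjusted p = 0.00502), and the Gins4 footprint-over-RNA call was lost without RNA control 1 (log2 0.87, edgeR adjusted p = 0.0579). Pold2 was higher as well (log2 0.83, SE 0.29, edgeR adjusted p = 0.0461), but the Pold2 footprint-over-RNA call was lost with upper-quartile factors, with no low-count filter, with DESeq2, with a replicate block, and without RNA control 1, RNA control 3, RNA HF 1, RNA HF 3, RPF control 2, RPF control 3, RPF HF 1, RPF HF 2 or RPF HF 3 (log2 0.61 to 0.86, adjusted p = 0.0532 to 0.221).

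**Figure D4:**
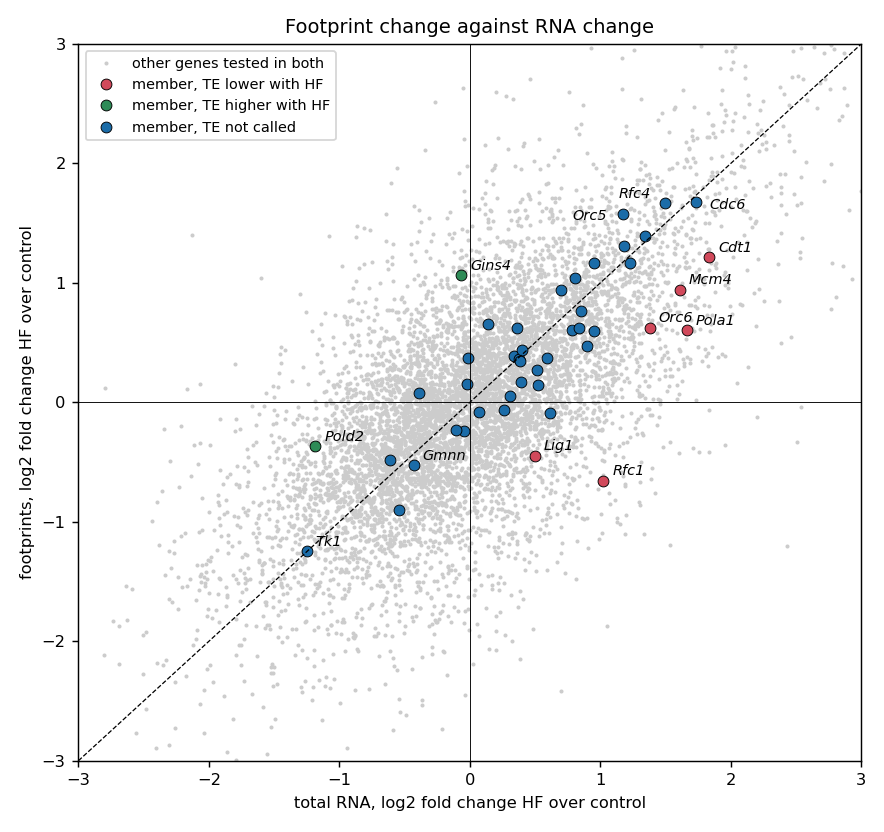
Log2 fold changes (HF over control) in total RNA on the horizontal axis and in footprints on the vertical axis, with the 45 replication genes among 7921 genes tested in both, a dashed line of equal change, and colours for the call in footprints relative to RNA (TE). Rfc1 and Lig1 lie where RNA rose and footprints fell, and 87 genes lie outside the range of 3 log2 units on either side.

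The ratio of footprints to RNA gives each gene a level of its own in both conditions. The median log2 ratio of the 45 genes was 0.43 in HF cells and 0.62 in control cells, against -0.25 in HF cells and -0.27 in control cells over the 7926 genes tested. The ratio depends on which parts of the transcript were counted, which is not given in the sources used here. Ratios above the median of all genes were found for 39 of the 45 in HF cells and 38 in control cells. Pola1 had a log2 ratio of 1.71 in HF cells and 2.76 in control cells. Rfc1 was at -0.33 in HF cells and 1.34 in control cells. Lig1 was at -0.32 in HF cells and 0.62 in control cells, and Gins4 at 0.09 in HF cells and -1.05 in control cells.

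**Figure D5:**
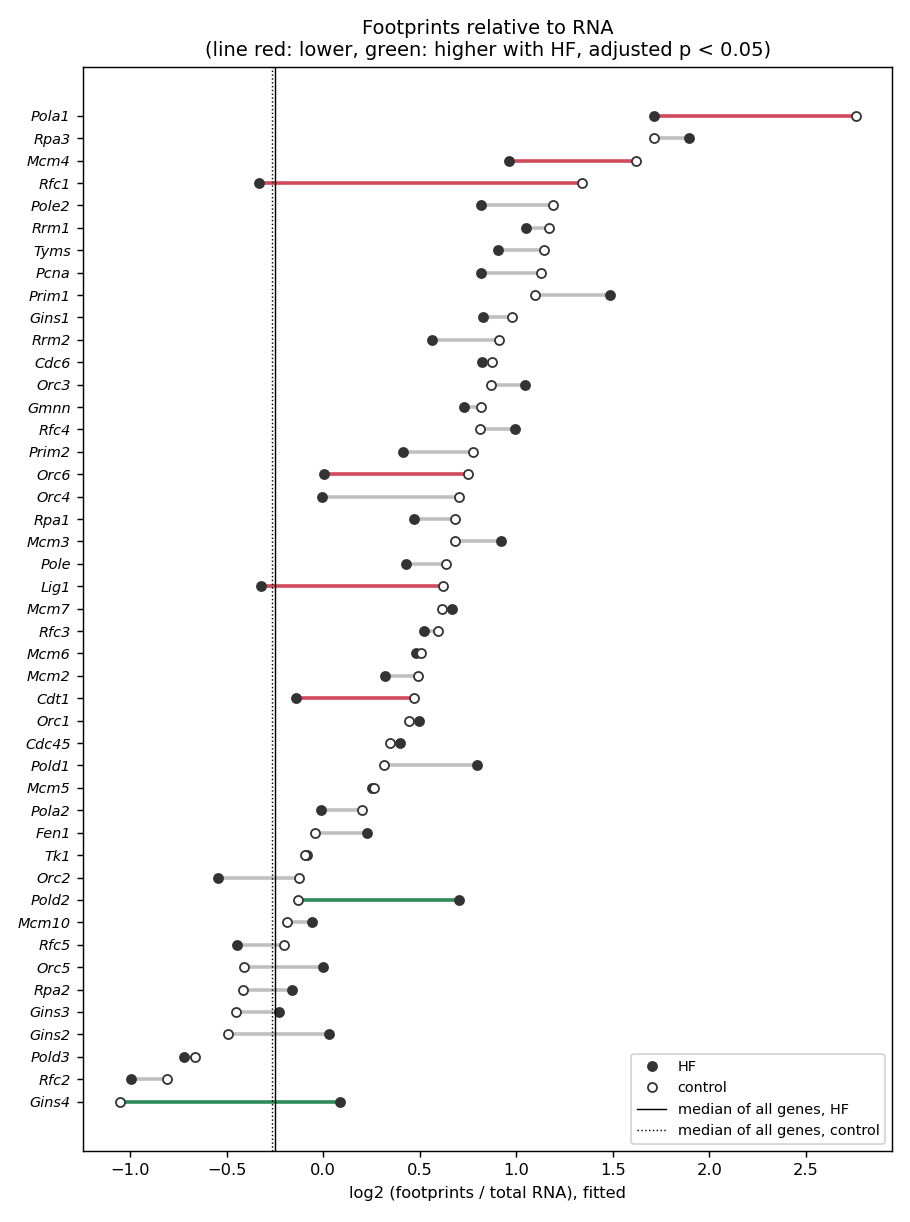
Log2 ratio of footprints to total RNA for the 45 replication genes in HF and control cells, with the medians of all genes tested and a coloured line where the interaction was called (red lower, green higher in HF cells). Most genes sit above the all-gene medians of -0.25 in HF cells and -0.27 in control cells, and Rfc1 shows the widest gap, -0.33 in HF cells against 1.34 in control cells.

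The RNA and footprint calls were also split by the E2F words. Of the 15 genes with a word in the window, 11 rose in RNA and 0 fell, against 15 that rose and 2 that fell of the 22 without one and 2 of the 8 with no window that rose. In footprints 10 of the 15 rose and 2 fell, against 12 that rose and 3 that fell of the 22. Of the 8 with no window, 4 rose and 1 fell in footprints. Over all genes tested, 22.2% rose and 21.4% fell in RNA, and 22.4% and 20.9% in footprints. Median log2 fold changes were 0.50 with a word and 0.60 without one in RNA, and 0.44 and 0.37 in footprints. These splits were not tested.

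Genes that work beside the replication machinery were read from 4 lists chosen with earlier results of these data known. Their counts stand beside 22.2% of all genes tested rising and 21.4% falling in RNA, 22.4% and 20.9% in footprints, and 6.13% higher and 8.23% lower in the interaction. Of replisome partners, 14 of 30 tested rose and 3 fell in RNA, and 12 of 29 rose and 4 fell in footprints, with median log2 fold changes of 0.46 and 0.35. Atad5, which helps unload PCNA, rose in RNA (log2 2.54, SE 0.32, edgeR adjusted p = 5.85e-10) and in footprints (log2 1.38, SE 0.19, edgeR adjusted p = 5.65e-07). Wdhd1 and Ticrr RNA rose by log2 1.51 and 1.40. In footprints Tipin, a partner of Timeless at the fork, had the highest fold change of this list (log2 2.25, SE 0.16, edgeR adjusted p = 2.39e-13), and Dtl, which directs the destruction of Cdt1, rose by log2 1.38. The interaction was negative for Atad5 (log2 -1.17) and Topbp1 (log2 -0.87) and positive for Tipin (log2 1.06), among 1 higher and 4 lower of 29. The Atad5 footprint-over-RNA call was lost without RNA control 1, RNA control 3, RNA HF 2, RNA HF 3, RPF control 1, RPF control 2 or RPF HF 1 (log2 -1.14 to -0.74, adjusted p = 0.071 to 0.269), and it was at log2 -1.93 without RNA control 2.

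Of 8 chromatin replication genes, 4 rose and 1 fell in RNA, and 5 rose and 1 fell in footprints, with median log2 fold changes of 0.46 and 0.56. RNA of Hells, a chromatin remodeller, rose by log2 1.51, with 0.91 for Uhrf1 and 0.90 for Asf1a. The Asf1a RNA call was lost without RNA control 2 (log2 0.69, edgeR adjusted p = 0.0736). Footprints rose by log2 1.06 for Uhrf1, 0.96 for Asf1a and 0.62 for Dnmt1, the maintenance DNA methyltransferase. The interaction was called for Asf1b (log2 0.89), Hells (log2 -0.88) and Nasp (log2 -0.53), as 1 higher and 2 lower of 8. The Asf1b footprint-over-RNA call was lost without RNA control 1 (log2 0.64, edgeR adjusted p = 0.114). The Nasp footprint-over-RNA call was lost with counts divided by 2 and without RNA control 1, RNA control 3, RNA HF 1, RNA HF 3, RPF control 1, RPF control 2, RPF control 3 or RPF HF 3 (log2 -0.54 to -0.45, adjusted p = 0.0529 to 0.114).

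Of nucleotide synthesis partners, 4 of 26 rose and 7 fell in RNA, and 4 of 25 rose and 9 fell in footprints, with median log2 fold changes of -0.10 and -0.18. Impdh2, an enzyme of guanine nucleotide synthesis, fell in RNA (log2 -1.73, SE 0.28, edgeR adjusted p = 3.81e-07) and in footprints (log2 -1.98, SE 0.21, edgeR adjusted p = 4.59e-09). Ctps2 RNA fell (log2 -1.36, and -2.06 without RNA HF 3), and the Ctps2 RNA call was lost without RNA control 3, RNA HF 1 or RNA HF 2 (log2 -1.19 to -1.06, adjusted p = 0.0806 to 0.0952). Nme2 footprints fell (log2 -1.73) and Rrm2b footprints rose (log2 1.38), but the Rrm2b footprint call was lost without RPF control 2 or RPF HF 2 (log2 1.08 to 1.21, adjusted p = 0.0604 to 0.0975). The interaction was called for Nme1 (log2 0.77), Gmps (log2 -0.56) and Adss (log2 -0.53), as 1 higher and 2 lower of 25. The Nme1 footprint-over-RNA call was lost without RNA control 2 or RPF HF 2 (log2 0.59 to 0.60, adjusted p = 0.0562 to 0.0654). The Gmps footprint-over-RNA call was lost with DESeq2, with a replicate block by culture, and without RNA control 1, RNA control 3, RNA HF 2, RNA HF 3, RPF control 1, RPF control 2, RPF HF 2 or RPF HF 3 (log2 -0.59 to -0.48, adjusted p = 0.055 to 0.152). The Adss footprint-over-RNA call was lost with DESeq2 and without RNA control 1, RNA control 2, RNA HF 2, RNA HF 3, RPF control 1, RPF control 2, RPF control 3, RPF HF 2 or RPF HF 3 (log2 -0.56 to -0.45, adjusted p = 0.0537 to 0.129).

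Of 24 genes of G2 and mitosis, 7 rose and 5 fell in RNA, and 5 rose and 4 fell in footprints, with median log2 fold changes of -0.01 and -0.03. The proliferation marker Mki67 rose in RNA (log2 1.39, SE 0.32, edgeR adjusted p = 0.000321) and in footprints (log2 1.07). The mitotic motors Kif11 and Kif20a went apart in RNA, at log2 1.36 and -1.22, and Kif20a footprints fell as well (log2 -1.12). Birc5 footprints rose by log2 0.96. The interaction was called for Kif11 (log2 -1.41), Hmmr (log2 -0.87) and Ube2c (log2 0.81), among 3 higher and 4 lower of 24. The Hmmr footprint-over-RNA call was lost with a replicate block, with a replicate block by culture, and without RNA control 1, RNA control 2, RNA control 3, RNA HF 3, RPF control 1, RPF control 2, RPF HF 1 or RPF HF 2 (log2 -0.92 to -0.67, adjusted p = 0.0523 to 0.183).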

How the data were processed

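Per the labels' protocols, alkaline hydrolysis fragmented the total RNA, and footprints came from lysate digested with RNase I and taken from the monosome part of a sucrose gradient. Per the submitters' processing notes, the tools included HISAT2, Bowtie and HTSeq, without versions, and the genome build was GRCm38. The authors deposited whole-number counts per gene, 1 table a library, not normalized. Which feature was counted, whether strand was used and how reads with several positions were handled was not given in the sources used here. Even values prevailed among low counts (1541 genes had 2 counts and 419 had 1 in RNA control 1), which the sources used here do not explain. Of 55536 gene IDs, 55450 matched a symbol, 38652 had a type in RefSeq, and 21409 were protein-coding. Entries without a gene name numbered 0.

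Tests ran in R 4.3.3 with edgeR 4.0.16: the quasi-likelihood test, TMM factors, filterByExpr with a minimum count of 10, and Benjamini-Hochberg adjustment over all genes tested, at 0.05. RNA and footprints were each fitted on their own 6 libraries, footprints over protein-coding genes. Footprints relative to RNA were tested by an interaction term, assay by treatment, over 12 libraries, with TMM factors within each assay. CPM values are scaled by TMM factors, so changes are relative to most other genes. SE is the absolute log2 fold change over the square root of F. The fits were also run on simulated data, with 200 changed genes taken from well-counted genes and the same spread for all genes. In the real data far more genes were called and low genes were tested, so the rates there may differ. True changes of log2 1 were recovered in 88.0% of changed genes in RNA, 83.8% in footprints and 51.0% in the interaction. False calls made up 3.09% of calls in RNA, 8.04% in footprints and 4.55% in the interaction, at the threshold of 0.05. Between replicates of a group, chi-square per degree of freedom was 2.26 to 4.45 on the counts as deposited and 1.13 to 2.22 on counts divided by 2.

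The 45 genes and the other lists were chosen with earlier results of these data known. Values in every library are given for the 2 genes of each role with the largest called change in RNA and in footprints, for genes called lower, and for genes called in the interaction. Of the other lists, up to 3 called genes with the largest change per comparison are named. One gene of these lists is not reported here. DESeq2 1.42.0, other scaling and filters, a replicate block, counts divided by 2, a fit on all libraries and leaving out each library were alternatives. For the interaction, a replicate block by culture was another, with same-numbered RNA and footprint libraries of a treatment taken as sharing a culture. The labels do not state that they do.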

Additional observations from a re-analysis of the deposited data

Results flagged for a closer look

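In 8 of the 45 replication genes the effect of HF on footprints differed from its effect on RNA by edgeR's test of the interaction over 12 libraries, 2 higher and 6 lower, while 6.13% of the 7926 genes tested were called higher and 8.23% lower. On the log2 scale, the footprint effect minus the RNA effect was -1.67 for Rfc1, -1.05 for Pola1, -0.94 for Lig1, -0.75 for Orc6, -0.66 for Mcm4 and -0.61 for Cdt1. It was 1.14 for Gins4 and 0.83 for Pold2. The calls of Cdt1, Pold2 and Gins4 were lost under some alternatives.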

How the results depend on the processing

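No called value of the 45 genes changed sign under the alternatives run. Calls held under all of them for 23 of 30 genes in RNA, 19 of 32 in footprints and 5 of 8 in the interaction. Leaving out 1 library at a time gave 24 to 25 genes higher and 2 lower in RNA, and 18 to 26 higher and 3 to 5 lower in footprints, with 3 lower without RPF control 3 or RPF HF 3. In both of these settings Gmnn, Pole2, Lig1 and Rrm1 lost their footprint calls, while Rfc1 and Tk1 kept theirs. The remaining gene was newly called lower: Pold2 without RPF control 3 (log2 -0.51) and Rpa3 without RPF HF 3 (log2 -0.62). In the interaction, leaving out 1 library gave 0 to 2 higher and 5 to 7 lower. The 0, by edgeR without RNA control 1, had 1 gene higher at an unadjusted p under 0.05. The interaction called 1 gene higher with upper-quartile factors, with no low-count filter and with DESeq2. Over all genes, leaving out a library gave 3361 to 3820 calls in RNA, 2917 to 3589 in footprints and 888 to 1073 in the interaction.

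The labels number replicates 1 to 3 in every group, but same-numbered libraries did not deviate together (correlations of -0.01 to 0.03 over 12 pairs). With a replicate block, 28 genes were higher and 2 lower in RNA, 26 higher and 6 lower in footprints, and 1 higher and 5 lower in the interaction. Genes that were not called gained a call in 1 of 222 values in RNA, 8 of 182 in footprints and 2 of 736 in the interaction. In footprints Rpa3 was called lower with upper-quartile factors, a minimum count of 30, counts divided by 2, and without RPF HF 3. Pold2 footprints were called lower with upper-quartile factors, counts divided by 2, and without RPF control 3, and Rpa1 was called higher without RPF HF 2. The other gains were Prim2 higher in RNA, and Rrm2 and Orc4 lower in the interaction. In the 4 neighbouring lists, some counts of up to 4 calls moved by over 1.5 times, to between 0 and 8. At a minimum count of 30, Pold3 footprints and some genes that were not called gave no value. Libraries of 562794 to 2527791 counts limit what low genes such as Pole2 and Pold3 can show.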
